A study of Mus musculus with 12 samples.

Results

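The miRNAs described here are mmu-miR-23a, mmu-miR-23b, mmu-miR-24, mmu-miR-27a, and mmu-miR-27b, the products of a pair of mouse genomic clusters (the prefix for mouse is left out below). They were chosen by name, and they make up 5 of the 696 miRNA names on the array other than controls. That count was not filtered for mouse names. Bone marrow cells of 6 to 8 week old male C57BL/6 mice, depleted of cells carrying B220/CD45R or CD3 (B and T lymphocytes), were grown with M-CSF and RANKL (each at 30 ng/ml), the growth factor and the cytokine under which precursors turn into osteoclasts. All groups received both factors, and by design the cultures differ only in the day of harvest. Cultures were harvested at days 1, 3, and 5, with 4 independent cultures per day and 1 array per culture. The marrow stays a mixture of cell types after the depletion, and whether animals were pooled for a culture is not given in the sources used here.

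A miRNA is a short RNA that holds back messenger RNAs matching its seed, the bases 2 to 8 counted from its 5′ end. The clusters arose as copies of each other, and each encodes a miR-23, a miR-27, and a miR-24, cut from a common precursor transcript. The a cluster is known as a target of the myeloid transcription factor PU.1 and as a brake on osteoblast formation in bone, and miR-27 is known to hold back adipocyte formation. In the RefSeq annotation of GRCm38.p6, the a cluster lies on the plus strand of chromosome 8, with Mir23a at chr8:84208518-84208592, Mir27a at chr8:84208672-84208758, and Mir24-2 at chr8:84208815-84208921. It spans 404 bases and overlaps 0 genes other than those of miRNAs. The b cluster lies on the plus strand of chromosome 13, with Mir23b at chr13:63300484-63300557, Mir27b at chr13:63300712-63300784, and Mir24-1 at chr13:63301208-63301275. It spans 792 bases, and all 3 of its miRNA genes fall within the bounds of Aopep, a protein-coding gene at chr13:62964893-63326096, for which no exons were used here.

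The mature sequences are shown because the a and b forms are nearly the same RNA, which decides what the array can separate. They are given 5′ to 3′ from RefSeq, with the seed in capitals. The miR-23b entry is named only.
miR-23a-3p: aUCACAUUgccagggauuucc
miR-27a-3p: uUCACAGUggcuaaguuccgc
miR-27b-3p: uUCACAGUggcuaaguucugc
miR-24-3p: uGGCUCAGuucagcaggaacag
miR-27a and miR-27b share their seed and differ at 1 of 21 bases, C19U counted from the 5′ end of miR-27a. The seeds of miR-23a and miR-27a differ by U6G counted from the start of the seed. Of the 5 RefSeq mature miRNAs with the miR-24 seed, miR-24 alone was found on the array by name.

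Each miRNA was read by a pair of probes, DNA oligonucleotides complementary to its 3′ portion, and the longer probe has 1 base more. The 17-base probes are shown because a single base separates each a probe from its b counterpart. They are written 5′ to 3′ as the array lists them, with the differing base in capitals.
miR-23a probe: ggAaatccctggcaatg
miR-23b probe: ggTaatccctggcaatg
miR-27a probe: gcGgaacttagccactg
miR-27b probe: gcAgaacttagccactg
Counted from the 5′ end of the a probe, the miR-23 probes differ by A3T and the miR-27 probes by G3A. How much of an a miRNA binds the b probe, and the reverse, was not tested. The array lists the a probes on chromosome 8, the b probes on chromosome 13, and the miR-24 probes on both, so miR-24 signal cannot be assigned to a cluster.

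All 5 miRNAs were detected on all 12 arrays. Between 186 and 276 miRNAs were detected per array, and detected miRNAs had a median signal of 6.71 to 16.5 times the local background. The arrays of days 1 and 5 lay on a single slide read in a single scan, whereas all arrays of day 3 lay on another, so day 3 and slide cannot be told apart. Signals below are total signals, the linear fluorescence that the scanner software sums over the probes of a miRNA after background subtraction. For tests they were quantile normalized, which gives every array the same distribution of values, and converted to log2. A miRNA was called changed at an adjusted p under 0.01 (limma, adjusted over the 334 miRNAs detected on at least 1 array), and the 2-fold limit is a log2 difference of 1.

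The b miRNAs rose most. Normalized miR-23b was 4.37-fold and normalized miR-27b 3.36-fold higher at day 5 than at day 1, and miR-24 was 2.41-fold higher. miR-27a rose by 0.59 on the log2 scale. The shorter probe of miR-23a, the probe of this miRNA that was not saturated, rose 1.68-fold. As RNA came from mixed cultures, fewer cells of a type and less RNA per cell cannot be told apart. All 5 miRNAs passed the F test over the 3 days (background 62.9% of the miRNAs tested), and miR-23b, miR-24, and miR-27b also passed the 2-fold limit (background 46.7%). At day 5 all 5 were called higher than at day 1 (background 31.7%), and 3 by over 2-fold (background 24.3%). Called higher at day 3 than at day 1 were 4, all but miR-27a (background 27.2%), and higher at day 5 than at day 3 were 4, all but miR-23a (background 14.7%). On the unnormalized signal, all 4 later arrays lay above all 4 earlier ones for 2 of the 5 at day 3 against day 1 (background 9.88%), for miR-23b, miR-24, and miR-27b at day 5 against day 1 (background 23.4%), and for 5 at day 5 against day 3 (background 32.9%). The median log2 change from day 1 to day 5 was 1.27 over the 5 and 0.11 over all miRNAs tested.

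miR-23b, the miR-23 of the b cluster, had total signals of 13380, 11636, 12769, and 7907 on the 4 arrays of day 1. It had 21261, 18163, 18822, and 19891 at day 3, and 43894, 37483, 36847, and 38448 at day 5. The 3 days did not overlap in signal, and the lowest array was replicate 4 of day 1. The normalized log2 values were 13.21 ± 0.13 at day 1, 14.87 ± 0.12 at day 3, and 15.34 ± 0.10 at day 5 (SD, n = 4). miR-23b rose by 1.66 ± 0.09 (SE, log2) from day 1 to day 3 (limma, adjusted p = 7.68e-08) and by 2.13 ± 0.09 from day 1 to day 5 (adjusted p = 5.93e-09). From day 3 to day 5 it was 0.47 ± 0.09 (adjusted p = 0.00247). That last step lost its call in 6 of 31 alternative ways of processing, among them the longer probe alone. Without normalization between arrays, the corresponding changes were 0.80, 1.80, and 1.00, and the groups remained apart in each comparison.

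miR-27b had total signals of 9524, 7648, 8033, and 6481 at day 1. At day 3 it had 12876, 10400, 11112, and 11620, and at day 5 25842, 21257, 23760, and 23139. Its 3 days were likewise apart on the unnormalized signal, in the order of the days. In normalized log2 units it changed by 1.07 ± 0.08 (SE) from day 1 to day 3 (limma, adjusted p = 1.08e-06), by 1.75 ± 0.08 from day 1 to day 5 (adjusted p = 1.15e-08), and by 0.68 ± 0.08 from day 3 to day 5 (adjusted p = 0.000156). Without normalization the changes were 0.55, 1.58, and 1.03. The step from day 3 to day 5 lost its call in 2 of 31 alternatives, among them the shorter probe alone.

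miR-24, which either cluster can supply, had total signals of 35854, 29813, 35816, and 27317 at day 1. At day 3 the values were 32836, 28859, 30025, and 31072, inside the range of day 1. At day 5 they were 66046, 54996, 60159, and 59126, above every earlier array. Normalized miR-24 rose by 1.27 ± 0.07 (SE, log2) from day 1 to day 5 (limma, adjusted p = 4.22e-08), and without normalization it was 0.91. From day 1 to day 3 the direction depended on the scale. The normalized value rose by 0.88 ± 0.07 (adjusted p = 1.47e-06), while the unnormalized signal changed by −0.061. On the normalized scale miR-24 rose by 0.39 ± 0.07 from day 3 to day 5 (adjusted p = 0.00146), and by 0.97 on the unnormalized scale. The call for this step was lost in 5 of 31 alternatives, among them each probe of miR-24 alone.

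miR-27a had total signals of 30849, 24658, 29553, and 19507 at day 1. At day 3 it had 21269, 16586, 17984, and 17492, and at day 5 34164, 26723, 31111, and 32904. Days 1 and 5 overlapped, and 3 of the 4 day 3 arrays lay below every array of day 1. In normalized log2 units it rose by 0.59 ± 0.08 (SE) from day 1 to day 5 (limma, adjusted p = 5.46e-05), but without normalization the change was 0.27 with an adjusted p of 0.189. From day 1 to day 3 the normalized change of 0.28 ± 0.08 missed the threshold (adjusted p = 0.0105), and the unnormalized change was −0.50. The rise of 0.31 from day 3 to day 5 was just inside the threshold (adjusted p = 0.00996), and it fell outside in 22 of 31 alternatives, among them leaving out any single array other than replicate 1 of day 3.

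miR-23a was the brightest of the 5 and the least certain. Its total signals were 63085, 58399, 63736, and 49259 at day 1, 52664, 46437, 47426, and 49424 at day 3, and 66409, 62822, 64893, and 68934 at day 5. Its 18-base probe carried saturated spots on 3 arrays of day 1, on 1 array of day 3, and on all 4 arrays of day 5, so the total signals of those arrays are lower limits, and no fold is read from the totals. On every array of a given day miR-23a had the same rank among all miRNAs, place 8 from the brightest at day 1 and place 4 at days 3 and 5. Quantile normalization therefore gave it a single value per day, 15.45, 16.01, and 16.01 on the log2 scale with an SD of 0. Its adjusted p of 2.12e-06 for day 5 against day 1 rests on that. The 17-base probe was saturated on no array. Its log2 signal without normalization was 14.93, 14.79, 15.06, and 14.51 at day 1, 14.62, 14.39, 14.41, and 14.42 at day 3, and 15.36, 15.12, 15.17, and 15.13 at day 5. Day 5 lay above day 1 on every array, and day 3 overlapped day 1. The day 5 change was 0.37 ± 0.16 (SE) without normalization (limma over all probes, adjusted p = 0.0709) and 0.75 ± 0.09 after normalization (adjusted p = 3.28e-05).

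**Figure D1:**
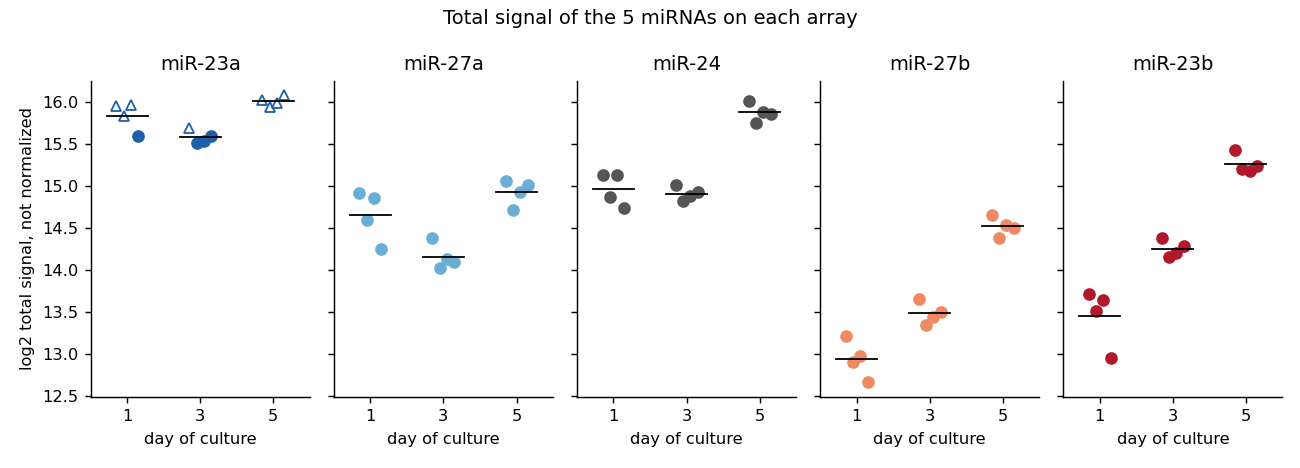
Total signal (log2, not normalized between arrays) of each miRNA on each of the 12 arrays by day of culture, with bars at the mean of 4 arrays and open triangles for arrays on which miR-23a had saturated spots. The b miRNAs stepped up at each day, whereas miR-27a and miR-24 were no higher on average at day 3 than at day 1.

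The a and b members of each family were compared within an array, as the log2 signal of a minus that of b. This difference does not depend on the overall brightness of an array. Its size reflects how strongly each probe shines as well as the amount of RNA, so only its change between days is read, and not which member was more abundant.

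For miR-27, in which no probe was saturated, a minus b of the unnormalized total signal was 1.70, 1.69, 1.88, and 1.59 at day 1. It was 0.72, 0.67, 0.69, and 0.59 at day 3, and 0.40, 0.33, 0.39, and 0.51 at day 5. The days did not overlap. With normalization, the mean difference went from 1.58 ± 0.10 (SD, n = 4) at day 1 to 0.78 ± 0.18 at day 3 and 0.41 ± 0.11 at day 5. The change from day 1 to day 5 was −1.16, so that miR-27b rose 2.24-fold more than miR-27a. By exact permutation of the day labels (two-sided, 4 arrays per day), each of the 3 comparisons of days gave p = 0.0286, the smallest this design allows, and 0.0286 after adjustment over the 6 comparisons of both families.

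For miR-23, a minus b of the unnormalized total signal ranged from 2.24 to 2.64 at day 1, from 1.31 to 1.35 at day 3, and from 0.60 to 0.84 at day 5. With normalization it was 2.24 ± 0.13 (SD, n = 4), 1.14 ± 0.12, and 0.68 ± 0.10, with no overlap between days. As the total signal of miR-23a is saturated at both days 1 and 5, the size of this fall is neither exact nor a bound. The 17-base probes of both miRNAs were therefore compared alone, a choice made after the saturation had been seen. Without normalization their difference went from 1.14 ± 0.20 (SD, n = 4) at day 1 through −0.073 ± 0.011 at day 3 to −0.32 ± 0.06 at day 5. The day 5 change was then −1.45 (exact permutation p = 0.0286), so that the miR-23b probe rose 2.74-fold more than that of miR-23a. With normalization it was −1.35, or 2.55-fold.

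**Figure D2:**
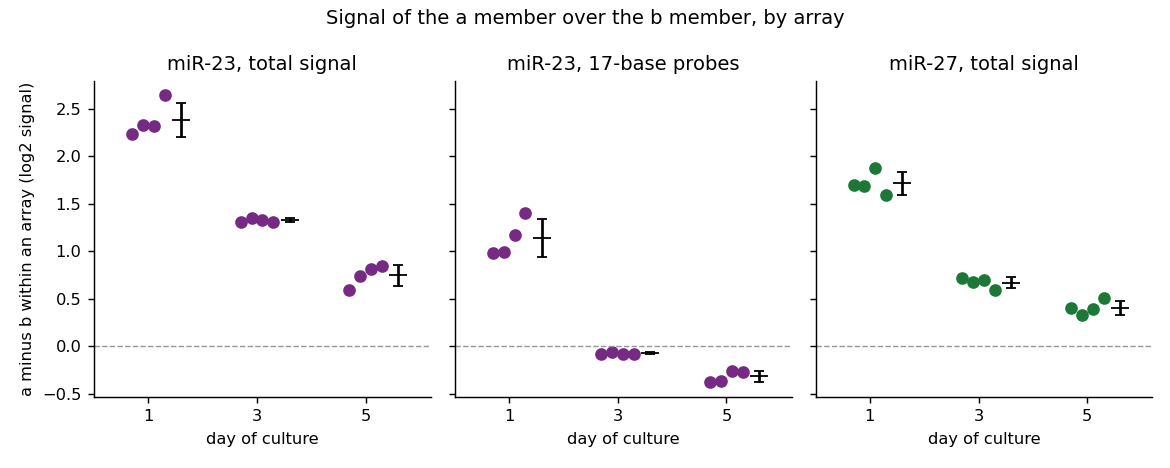
Within-array difference of the a and b members (log2 signal, not normalized) on each array by day, for miR-23 by total signal and by the 17-base probes and for miR-27 by total signal, with the mean and SD of 4 arrays in black. All 3 panels fall from day 1 to day 3 and again to day 5, and no array of a later day reaches an earlier day.

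The step from day 1 to day 5, within the shared slide, kept its call in the 19 alternatives tested for miR-23 and the 17 for miR-27. Its direction was kept in a further 13 without a test (each array left out in turn and the replicate block). Some of these could not change it, as a factor applied to a whole array cancels in a minus b. Both 75th percentiles, the median, and no normalization thus gave a single value (−1.63 for miR-23 and −1.31 for miR-27). The value of the fit reported recurred with the replicate block, a lower floor, and quantile normalization over all miRNAs. The counts are therefore not counts of independent checks. The step lay between −1.41 and −1.08 for miR-27. For miR-23 it lay between −1.45 and −1.27 on the unsaturated probe of miR-23a, and reached −1.74 on the saturated one. The step from day 3 to day 5 was smaller. For miR-27 it was −0.36 and did not hold with the processed spot signal (−0.12), with normexp background correction (−0.12), or with either probe alone (−0.044 and −0.20). For miR-23 it was −0.47 and did not hold with the deposited normalized values (−0.20). The −0.47 rests on the saturated total signal of miR-23a, so its size is not read. On the unsaturated 17-base probes the step from day 3 to day 5 was −0.12 with normalization and −0.24 without. With the shorter probe of each miR-23 member it was −0.26 with normalization and −0.33 without.

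The other 8 pairs among the 5 miRNAs, within and across clusters, were compared in the same way between days 1 and 5, and p-values were adjusted over the 8. The 3 pairs with miR-23a rest on its saturated total signal and are not read. In their place, the 17-base probes of the a cluster changed by 0.75 ± 0.09 (miR-23a) and 0.66 ± 0.09 (miR-27a) on the normalized scale (SE), and by 0.37 ± 0.16 and 0.30 ± 0.19 without normalization, a difference that was not tested. miR-23b minus miR-27b, both of the b cluster, rose by 0.38 (exact permutation test, adjusted p = 0.0327), but without normalization the rise of 0.22 had an exact p of 0.0571. miR-24 lay between miR-27a and the b members. It rose by 0.68 more than miR-27a, by 0.48 less than miR-27b and by 0.86 less than miR-23b, each with an adjusted exact p of 0.0327 and no overlap of the days.

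Other pairs of miRNAs named with a final a and b gave a background for these differences. Of 10 such pairs detected on all 12 arrays, 5 had an a minus b that did not overlap between days 1 and 5 without normalization (50% of pairs), and 7 with normalization (70%). A shift between the letters is therefore common here. By size of the unnormalized change, miR-27 (−1.31) was in place 5 of the 12 pairs. miR-23 was in place 2, both on its saturated total signal (−1.63) and on the 17-base probes (−1.45). The latter place sets single probes of miR-23 against total signals of the other pairs, which are unlike measures. The median size of the other 10 was 0.36. miR-146 stood in place 1 with 1.84, in the opposite direction.

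**Figure D3:**
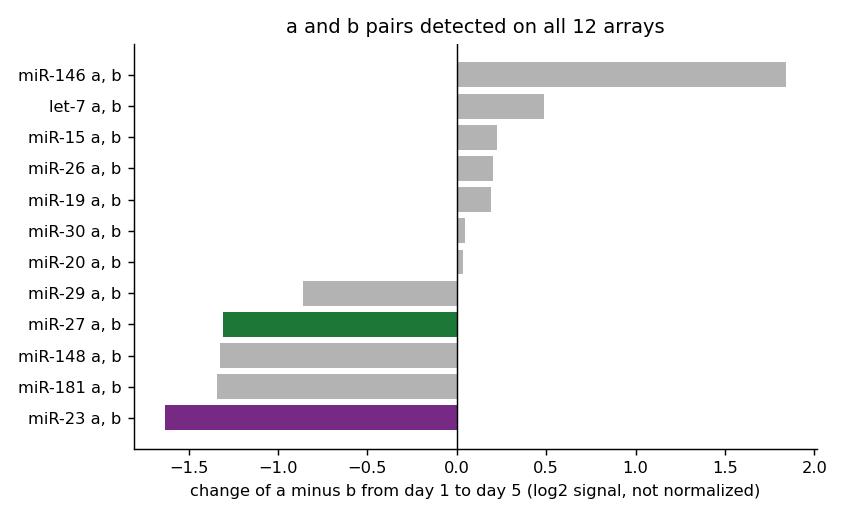
Change of a minus b from day 1 to day 5 (log2 signal, not normalized, mean of 4 arrays per day) for the 12 a and b pairs detected on all arrays, with miR-23 (saturated total signal of miR-23a) in purple and miR-27 in green. A bar to the left means that the b member gained on the a member, as in miR-23, miR-181, miR-148, miR-27, and miR-29.

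Probes of a miRNA can be read apart from each other. The normalized day 5 change was 2.02 and 2.10 on the 16-base and 17-base probes of miR-23b, and 1.85 and 1.80 on those of miR-27b. For miR-24 it was 1.28 on the 17-base and 1.21 on the 18-base probe. The probes of miR-27a gave 0.44 on 16 bases and 0.66 on 17, and those of miR-23a gave 0.75 on 17 bases and 0.48 on the saturated 18. In each case the probes of a miRNA changed in the same direction, and on the normalized scale those of b members exceeded those of a members by more than 1.

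The other strand of a miRNA precursor can also be kept, and for miR-24 it tells the clusters apart, since miR-24-1* comes from the b cluster and miR-24-2* from the a cluster. Their RefSeq sequences are shown because they share the first 16 bases and part only at the 3′ end, written here in capitals.
miR-24-1* (miR-24-1-5p): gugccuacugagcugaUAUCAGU
miR-24-2* (miR-24-2-5p): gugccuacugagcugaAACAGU
Their probes share at most 11 bases in a row. Of the 6 opposite strands considered, the array carries 4, and miR-27a* and miR-27b* were detected on 0 arrays.

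miR-24-1*, from the b cluster, was dim. It had total signals of 118, 137, 124, and 68.0 at day 1, where 2 of 4 arrays detected it. At day 3 the signals were 237, 177, 227, and 215, and at day 5 504, 373, 465, and 410. The 3 days did not overlap. By day 5 it had risen by 2.51 ± 0.19 in normalized log2 units (SE; limma, adjusted p = 6.33e-07), and the unnormalized change was 2.01. The size is uncertain, as 2 of the day 1 arrays did not detect it and its probes gave 5.07 on 20 bases and 2.43 on 21.

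miR-24-2*, from the a cluster, had total signals of 800, 666, 824, and 593 at day 1, 936, 743, 791, and 726 at day 3, and 1780, 1385, 1892, and 1746 at day 5. Day 5 was above all earlier arrays, while days 1 and 3 overlapped. By day 5 it had risen by 1.71 ± 0.10 in normalized log2 units (SE; limma, adjusted p = 8.98e-08), and the unnormalized change was 1.24. Both opposite strands of miR-24 thus rose. Of the same cluster, the unsaturated miR-23a probe rose by 0.75 and miR-27a by 0.59 on that scale, and the difference from miR-24-2* was not tested.

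miR-24-1* minus miR-24-2* within an array was −2.73 ± 0.34 (SD, n = 4) at day 1, −1.90 ± 0.15 at day 3, and −1.96 ± 0.12 at day 5 on the unnormalized scale. The direction was that of miR-24-1* gaining on miR-24-2* by day 3, with no further gain by day 5. Its size is uncertain, as miR-24-1* was detected on 2 of 4 arrays at day 1, and day 3 cannot be told apart from slide. The difference of these opposite strands was chosen after the values had been seen and is given with no test.

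**Figure D4:**
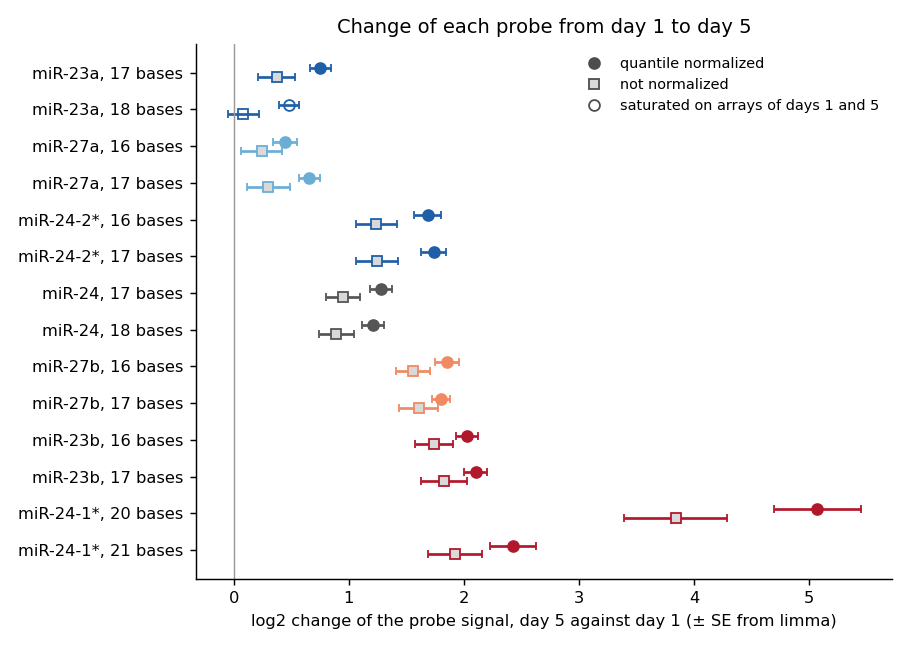
Log2 change from day 1 to day 5 of each probe of the 5 miRNAs and of both opposite strands of miR-24, normalized (circles) and not (grey squares), with SE bars from limma; open symbols mark the saturated 18-base probe of miR-23a. Probes of miR-23a and miR-27a lie below 1 on both scales, and those of miR-23b and miR-27b lie above 1, with miR-24 between them. The 20-base probe of miR-24-1*, dim at day 1, lies farthest right.

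The 5 miRNAs were also compared by likeness, the root mean square difference of normalized log2 values over the 12 arrays after each miRNA was centered on its own mean. miR-23a and miR-27a differed by 0.16, and miR-23b and miR-27b by 0.28. The a and b members of a family differed by more, 0.66 for miR-23 and 0.50 for miR-27. miR-24 was 0.22 from miR-27b, 0.30 from miR-23a, 0.31 from miR-27a, and 0.41 from miR-23b, so it was not nearer to either cluster as a whole.

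Among the other miRNAs detected on all arrays, 148 with the 5, the most like miR-23b were miR-125b-5p (0.19), miR-324-5p (0.20), and miR-331-3p (0.23). For miR-27b they were miR-24-2* (0.14), miR-324-5p (0.15), and miR-362-3p (0.25). Although it comes from the a cluster, miR-24-2* was thus nearer to miR-27b than was miR-23b of the b cluster (0.28). The nearest to miR-24 were miR-140 (0.15), miR-186 (0.19), and miR-34a (0.20). For miR-27a they were miR-148b (0.14), miR-107 (0.15), and miR-19b (0.16), and for miR-23a miR-1937b_v16.0 (0.07), miR-19b (0.08), and miR-361 (0.11). The median distance over all compared lay between 0.42 for miR-23a and 0.83 for miR-23b. miR-324-5p was on the lists of both b members and miR-19b on those of both a members, with values that share the same arrays and scaling. The likeness of miR-23a rests on its single value per day.

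The changes of all 5 miRNAs from day 1 to days 3 and 5 were lower without normalization than with quantile normalization. Without it the median miRNA changed by −0.77 from day 1 to day 3 and by −0.50 from day 1 to day 5, against 0.18 and 0.11 with it. All 5 were above the median on both scales at both days. The order of the changes at day 5 was the same with and without normalization for the b members and miR-24, with miR-23b first, miR-27b next, and miR-24 in the middle.

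**Figure D5:**
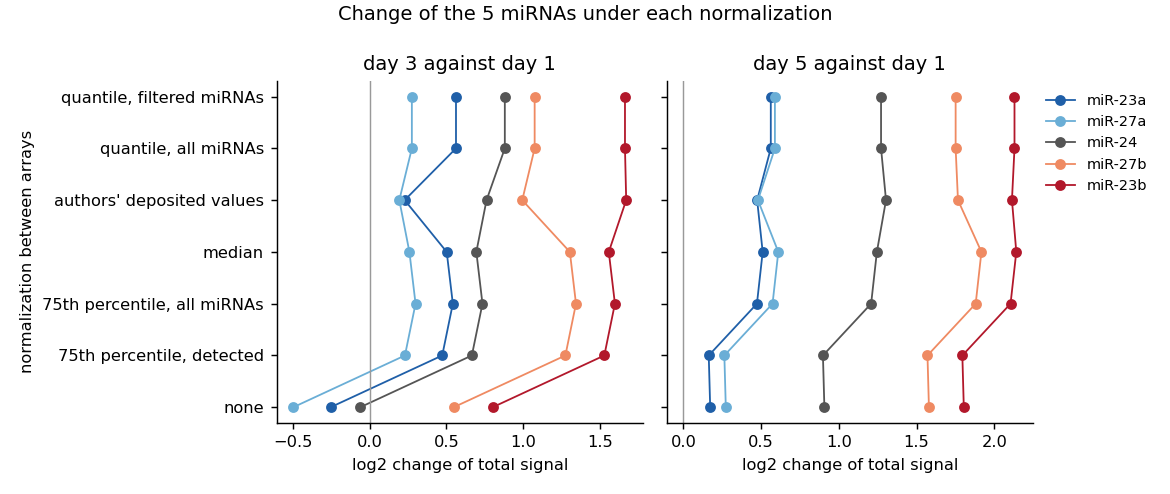
Log2 change of the total signal of the 5 miRNAs from day 1 to day 3 and from day 1 to day 5 under 7 ways of normalizing between arrays, from quantile normalization at the top to none at the bottom. At day 5 all points lie right of 0, while at day 3 miR-23a, miR-24, and miR-27a lie left of 0 with no normalization.

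Markers of other cells in the marrow changed over the same days. Of the erythroid list, miR-451 changed by −7.24 on the normalized log2 scale from day 1 to day 5 (limma, adjusted p = 8.78e-10) and was detected on 3 arrays at day 5. miR-144 was detected on 2 arrays at day 1 and on 0 at days 3 and 5, and was at least 5.06-fold lower at day 5. For a miRNA detected on 0 arrays of a day, such a bound sets the lowest detected signal of each array, or its own value if higher, in place of its level. The megakaryocytic marker miR-126-3p was detected on all 4 arrays at day 1 and on none later, and was at least 22.1-fold lower at day 5. The myeloid miR-223, known from granulocytes and monocytes, was detected on all 12 arrays and fell by 0.43 on the normalized scale. Its normalized values were 16.30 to 16.34 at day 1 and 15.87 to 15.90 at days 3 and 5. Quantile normalization sets such values by rank among the brightest miRNAs, and its unnormalized signal and saturation are not given here. Of the lymphoid list, miR-181a fell by 0.80 (adjusted p = 0.000641), miR-150 was detected at day 1 alone, and miR-181b changed by 0.45 (adjusted p = 0.0101). No list of osteoclast markers among miRNAs was used.

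Of 5 stromal markers, 4 were called higher at day 5 than at day 1 (background 31.7% of the miRNAs tested). miR-199a-3p rose by 2.23 and miR-199a-5p by 2.72, and miR-143 and miR-214, detected on 0 and 1 arrays at day 1, were each detected on 3 at day 5. miR-145 was detected on 1 array at day 1 and on none later. The summed stromal level, in normalized log2 units, was 8.77 to 9.38 at day 1, 9.21 to 9.39 at day 3, and 11.3 to 11.8 at day 5. From day 1 to day 3, miR-23b and miR-27b rose by 1.66 and 1.07 on that scale, and by 0.80 and 0.55 without normalization. Day 3 cannot be told apart from slide. The part of these markers in the rise of the b members by day 3 or by day 5 was not tested.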

How the data were processed

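Total RNA (200 ng) of each culture was labeled with Cy3 and hybridized to a single-color mouse miRNA array of 14635 spots (715 control), with 20 spots per miRNA. The authors read the images with Feature Extraction 9.5.3.1. The deposited scanner files hold linear intensity values, background-subtracted and not normalized between arrays, with flags for detection and saturation. The authors also deposited a table of quantile normalized log2 values from GeneSpring, empty where a miRNA was not detected, and served as an alternative. The array annotation names mm9, and positions here come from the RefSeq table of GRCm38.p6, which with the array's sequences gave a mature sequence for 4 of the 5 miRNAs.

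For the 334 miRNAs that any array detected, total signals were quantile normalized in limma 3.58.1 (R 4.3.3), raised to a floor of 1 (9.28% of values), and converted to log2. lmFit and eBayes with 1 mean per day were followed by Benjamini-Hochberg adjustment. Within-array differences were tested by exact two-sided permutation (scipy 1.17.1). Processing can affect bright miRNAs through saturation and through fixed ranks under quantile normalization. Scripts were tested on simulated data. The rule for named miRNAs took the 5 members, their opposite strands, seed sharers on the array, marker miRNAs, and for each member the 3 most alike. Marker lists held miR-214, both arms of miR-199a, miR-145, and miR-143 for stromal cells, miR-126-3p for megakaryocytes, miR-223 for granulocytes, miR-181b, miR-181a, and miR-150 for lymphocytes, and miR-144, miR-451, and miR-486 (not found by this name) for erythroid cells. The miRNAs and lists were chosen with earlier results of these data known. Alternatives covered the filter, scaling, background correction, deposited values, single probes, floor, days 1 and 5 alone, replicate block, trend, the methods' one-way analysis, an adjusted p under 0.05, and each array left out. Precision is limited by the 4 arrays per day.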

Additional observations from a re-analysis of the deposited data

Results flagged for a closer look

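In 3 of 27 groups of 4 arrays examined, a single array stood apart from the other 3 by Dixon's ratio, the gap to the nearest array over the whole range. About 1 in 20 such groups is expected to do so. The ratio was 1 for normalized miR-24 at day 3 (15.45 to 15.62) and 1 for normalized miR-27b at day 1 (12.77 to 12.95), where quantile normalization had given the other 3 arrays an identical value. It was 0.847 for normalized miR-24-1* at day 5 (8.683 to 8.857). None of these ranges approaches the change of the miRNA between days 1 and 5.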

How the results depend on the processing

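The rises of miR-23b, miR-24, and miR-27b from day 1 to day 5 kept direction and call in every alternative run. The day 5 fall of a minus b in both families kept its call, at the limit of 0.05, wherever it was tested. Its direction was kept in the 13 alternatives without a test (replicate block and single arrays left out). Alternatives that scale whole arrays cancel in a minus b and could not change it. Without normalization the day 3 change turned to −0.25 for miR-23a, −0.061 for miR-24, and −0.50 for miR-27a (shorter probes alone −0.36, −0.0083, and −0.51; longer probes alone −0.18, −0.051, and −0.47). The day 5 rise of the saturated miR-23a signal lost its call with the 75th percentile of miRNAs detected on all arrays (0.16), without normalization (0.17), and with its probes alone without normalization (0.37 and 0.082). That of miR-27a lost it without normalization (0.27) and with its probes alone without normalization (0.24 and 0.30). The day 5 against day 3 fall of a minus b lost its call for miR-23 with the deposited values (−0.20), and for miR-27 with processed spot signals (−0.12), normexp (−0.12), the shorter probe (−0.044), and the longer probe (−0.20). The causes were not tested.

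Of the 5 miRNAs, 3 passed the F test with longer probes unnormalized. Higher at day 3 than day 1 were 2 without normalization, and 1 with shorter or longer probes unnormalized. Higher at day 5 than day 1 were 3 without normalization, on total signals and on either probe. Higher at day 5 than day 3 were 4 in the fit reported, 1 with the 75th percentile of detected miRNAs, 2 with the median, 2 with processed spot signals, 1 with shorter probes, and 1 with longer probes. With the 75th percentile over all miRNAs, limma called 0 of them there, and 3 at an unadjusted p under 0.05. Leaving out single arrays gave 2 to 4 there, and 2 without replicate 2 of day 3. Leaving out each array gave 4 to 5 members higher at day 3 than day 1. The share of all miRNAs called in each of these settings is not given here, so these counts are not read against a background.

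Replicate numbers were not taken to pair the arrays. Over 148 miRNAs, same-numbered arrays correlated by over 0.1 in 11 of 12 pairs (up to 0.78) and best with their own number in 9, but replicate 4 of days 1 and 5 gave 0.087, and the labels name no shared source. With the replicate number as a block, the members called higher at day 5 than at day 3 went from 4 to 2, as miR-23b (adjusted p = 0.0124) and miR-27a (adjusted p = 0.0156) missed the threshold.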
